A study of Mus musculus with 25 samples.

Results

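The genes described here encode enzymes that break down glycogen and glucose to lactate in skeletal muscle. The list, chosen by function with earlier results of these data known, named 10 genes: Pygm, Pfkm, Aldoa, Tpi1, Gapdh, Pgk1, Pgam2, Eno3, Pkm and Ldha. Of these, 9 were rows of the table of 8829 genes, and Gapdh was not analysed here. Messenger RNA was measured in gastrocnemius, a calf muscle, from 25 male SAMP8 mice, an inbred strain selected for early signs of ageing. From 8 months of age the mice received either the vehicle, corn oil (Control, n = 11), or thymol, a terpenoid of thyme and oregano oil, at 20 mg/kg body weight per day (Thymol, n = 14), for 3 months. Doses were given by oral gavage on most, but not all, days of each week. All mice carried the SAMP8 background, so no mouse with ordinary ageing entered a comparison.

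Glycolysis splits glucose into pyruvate and yields ATP without oxygen. In muscle the pathway is fed largely by glycogen, from which glycogen phosphorylase releases glucose 1-phosphate, and lactate dehydrogenase turns pyruvate into lactate during hard work. Fast type IIb fibres, which contain the myosin heavy chain of Myh4, are known for a high glycolytic capacity, whereas slow fibres, which contain that of Myh7, rely on mitochondria. Fibres of type IIa contain the product of Myh2 and those of type IIx that of Myh1.

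Values are log2 CPM, read counts scaled to a common library size, from 3′ tag sequencing, in which each transcript gives about 1 fragment near its end, so levels of different genes were compared without division by length. The libraries held 4463818 to 9463418 reads over the genes of the table, with a median of 7503259. All 7 defining markers of skeletal muscle were present, at a summed 91123 to 112549 CPM per mouse, against 305 to 2411 CPM for 7 adipocyte markers and 53.7 to 273 CPM for 4 leukocyte markers. The mouse Thymol 20 stood apart in Myh7, at 1.68 log2 CPM (27 reads), where the next lowest mouse, Thymol 3, had 5.64. In whole muscle, fewer fibres of a type and less RNA per fibre cannot be told apart.

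The promoter windows of 5 of the genes are shown because the results turn on these genes: Eno3 and Ldha were the closest pair, Pygm followed Myh4, Pgam2 did not, and Pgk1 stood apart. Each window runs from 250 bases before to 50 bases after a transcription start of the RefSeq annotation (GRCm38.p6), 5′ to 3′ on the strand of the gene. Capitals mark ACGTG or GCGTG on either strand, the core bound by hypoxia-inducible factors, and, in Pgam2, a match to the MEF2 consensus of muscle genes. The windows are Pygm chr19:6384158-6384457 (plus strand), Pgk1 chrX:106186850-106187149 (plus), Pgam2 chr11:5803747-5804046 (minus), Eno3 chr11:70656926-70657225 (plus) and Ldha chr7:46845554-46845853 (plus, the first of 2 windows).
Pygm: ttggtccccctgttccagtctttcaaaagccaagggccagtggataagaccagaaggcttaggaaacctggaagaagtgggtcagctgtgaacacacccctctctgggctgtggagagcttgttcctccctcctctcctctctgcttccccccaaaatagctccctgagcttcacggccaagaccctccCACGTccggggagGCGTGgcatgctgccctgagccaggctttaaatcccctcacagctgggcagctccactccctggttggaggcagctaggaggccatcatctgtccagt
Pgk1: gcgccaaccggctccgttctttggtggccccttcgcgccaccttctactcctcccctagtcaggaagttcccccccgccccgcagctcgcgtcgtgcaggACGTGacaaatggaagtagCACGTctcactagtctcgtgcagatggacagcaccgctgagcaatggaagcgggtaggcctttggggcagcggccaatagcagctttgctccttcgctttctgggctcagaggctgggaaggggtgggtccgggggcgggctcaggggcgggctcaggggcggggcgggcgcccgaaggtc
Pgam2: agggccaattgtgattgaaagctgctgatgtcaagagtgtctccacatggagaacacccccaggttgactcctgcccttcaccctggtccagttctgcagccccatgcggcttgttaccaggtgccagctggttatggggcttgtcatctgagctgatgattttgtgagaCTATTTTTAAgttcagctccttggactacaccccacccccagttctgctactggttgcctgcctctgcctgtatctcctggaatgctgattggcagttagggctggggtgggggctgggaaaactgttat
Eno3: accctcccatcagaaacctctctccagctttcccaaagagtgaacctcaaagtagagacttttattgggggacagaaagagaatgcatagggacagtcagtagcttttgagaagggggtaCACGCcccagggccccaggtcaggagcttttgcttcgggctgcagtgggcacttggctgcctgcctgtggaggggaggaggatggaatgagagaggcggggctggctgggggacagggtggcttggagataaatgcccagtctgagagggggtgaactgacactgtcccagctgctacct
Ldha: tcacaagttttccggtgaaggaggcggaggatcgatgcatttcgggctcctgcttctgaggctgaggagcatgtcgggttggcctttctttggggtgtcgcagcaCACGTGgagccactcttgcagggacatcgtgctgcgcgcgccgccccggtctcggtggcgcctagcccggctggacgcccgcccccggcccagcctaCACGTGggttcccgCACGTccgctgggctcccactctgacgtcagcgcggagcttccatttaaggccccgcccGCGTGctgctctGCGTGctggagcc

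The 9 genes had 16 such windows. ACGTG or GCGTG occurred in 11 of the 16 windows, in 7 genes (Pygm, Pfkm, Aldoa, Pgk1, Eno3, Pkm and Ldha), against 43.8% of all 32851 windows. Windows 1 and 2 of Aldoa overlap and share a match, as do windows 2 and 3 of Pfkm, so the windows are not separate sequences. The Ldha window shown held 7 matches, counting both strands. The palindrome CACGTG, which contains ACGTG on both strands, was in 2 of the 16, 1 each of Pfkm and Ldha, against 7.15% of all windows. The MEF2 match was in the window of Pgam2 alone among the 9 genes, against 3.19% of all windows, and TATAAA was in none of the 16 windows, against 13.6% of all. GGGCGG was in 6 of the 16 windows (35.7% of all windows) and CANNTG, the E-box, in 14 of 16 (72.3%). These are matches of letters and were not tested as binding sites.

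In the GENCODE M21 annotation of GRCm38, which is the build the reads were mapped to, the genes that bring glycogen and hexoses into the pathway lie as follows: Pygm at chr19:6384399-6398459 (plus strand), Pfkm at chr15:98092589-98132451 (plus strand) and Aldoa at chr7:126795234-126800751 (minus strand). Those of the triose steps are Tpi1 at chr6:124810586-124814296 (minus strand), Pgk1 at chrX:106187100-106203699 (plus strand) and Pgam2 at chr11:5801640-5803733 (minus strand). Those of the last steps are Eno3 at chr11:70657202-70662513 (plus strand), Pkm at chr9:59656368-59679375 (plus strand) and Ldha at chr7:46841475-46855627 (plus strand). On the opposite strand, Pfkm overlaps Senp1, Aldoa overlaps Fam57b and Tpi1 overlaps Spsb2, and on the same strand Pfkm overlaps Gm26513 and Pkm overlaps Gm49759.

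The genes spanned a wide range of levels. Aldoa, whose aldolase cleaves fructose 1,6-bisphosphate, was the highest at 13.16 ± 0.13 log2 CPM (SD, n = 25 mice) and ranked 17 of 8829 genes. Pygm, the muscle glycogen phosphorylase, followed at 13.04 ± 0.16 (rank 18). Their difference of 0.12 ± 0.13 did not exceed its spread between mice, although Aldoa was the higher in 24 of 25 mice. The muscle enolase gene Eno3 had 11.60 ± 0.14 (rank 28) and the muscle phosphoglycerate mutase gene Pgam2 had 10.54 ± 0.15 (rank 40).

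Pfkm, encoding the phosphofructokinase of the committed step, had 10.10 ± 0.18, and the pyruvate kinase gene Pkm had 9.81 ± 0.18. Ldha, the lactate dehydrogenase subunit that predominates in fast muscle, had 9.37 ± 0.19, and Tpi1, the triosephosphate isomerase gene, had 8.77 ± 0.19 (rank 147). Each neighbour from Pygm down to Tpi1 kept its place in 25 of 25 mice, and the order by median CPM was identical. Together the 9 genes took 2.20 to 2.92% of the reads of a mouse.

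Pgk1, the gene of phosphoglycerate kinase, the first ATP-yielding step, was far below the rest at 2.38 ± 0.38 log2 CPM (rank 8015), with 18 to 65 reads per mouse. Counting alone gives an SD of 0.24 at that depth, against 0.38 observed. Of the 31-base words in its annotated transcript, 68.3% also occur in transcripts of other genes, against 11.1% of those in the last 500 bases, and all 6 genes that share the latter are pseudogenes. Words in the last 500 bases of Pygm, Pgam2 and Eno3 transcripts were shared with no other gene, whereas the shares were 22.6% for Tpi1, 23.98% for Ldha, 26.3% for Aldoa and 34.4% for Pkm. Reads of such stretches can be lost or assigned to a copy, and the part of this in the levels was not tested.

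Of 14 other isoforms of these enzymes, 6 were rows of the table. Those of phosphorylase, phosphofructokinase and enolase were low. In the mouse with the lowest share, Pygm made up 99.8% of the CPM of Pygm and Pygb (the brain form). The lowest share of Pfkm against Pfkl (the liver form) was 98.9%, and that of Eno3 against Eno1 (the ubiquitous form) 99.4%. Among the enzymes with such a row, lactate dehydrogenase was the exception. Ldha made up 79.8 to 97.2% of Ldha plus Ldhb, the subunit of slow and heart muscle, with a median of 90.9%.

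Thymol was compared with Control to ask whether treatment changed these enzymes. None of the 9 genes passed the test: limma with Benjamini-Hochberg adjustment over 8829 genes called 0 of 9, against 0% of all genes, and none of the 9 reached an unadjusted p under 0.05, which 312 genes (3.53%) did. The adjusted p was 0.9999 for each of the 9. The log2 differences ran from -0.05 (Pygm) to 0.07 (Pgam2), and the groups overlapped for every gene.

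For Pygm, at the entry from glycogen, the lowest, median and highest values were 12.76, 13.10 and 13.20 log2 CPM in Control. In Thymol they were 12.70, 13.02 and 13.28. The Thymol mice spread to both sides of the Control mice, 11 of 14 inside their range, and the difference was -0.05 (95% CI -0.19 to 0.09).

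For Pfkm, Control mice had 9.76, 10.07 and 10.46 as lowest, median and highest. Thymol mice had 9.73, 10.04 and 10.43, with 13 of 14 inside the Control range and a difference of -0.04 (-0.19 to 0.11). Aldoa ran from 12.93 through a median of 13.14 to 13.29 in Control and from 12.96 through 13.17 to 13.44 in Thymol. The highest mouse was Thymol 3, and the difference was 0.03 (-0.09 to 0.15).

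For Tpi1 the Control values were 8.40, 8.81 and 9.19. The Thymol values of 8.44, 8.75 and 9.16 all lay inside that range, with a difference of -0.05 (-0.20 to 0.11). Pgk1 ran from 1.56 through 2.42 to 3.21 in Control and from 1.82 through 2.37 to 2.92 in Thymol. All 14 Thymol mice were again inside the Control range, and its interval, -0.28 to 0.37 around 0.04, was the widest of the 9.

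In the lower part of the pathway, Pgam2 ran from 10.06 through 10.56 to 10.78 in Control and from 10.39 through 10.59 to 10.81 in Thymol. Control 19 was the lowest mouse and lay apart from its group, and the difference was 0.07 (-0.06 to 0.19). Eno3 had 11.37, 11.56 and 11.75 in Control and 11.35, 11.61 and 11.81 in Thymol. Here 9 of 14 Thymol mice were inside the Control range, with a difference of 0.04 (-0.08 to 0.16).

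Pkm had 9.39, 9.87 and 10.00 in Control and 9.56, 9.80 and 10.16 in Thymol, a difference of 3.87e-05 (-0.14 to 0.14). Ldha had 9.12, 9.37 and 9.60 in Control and 8.88, 9.39 and 9.76 in Thymol. The Thymol mice held both the lowest value, in Thymol 6, and the highest, in Thymol 20, and the difference was -0.01 (-0.16 to 0.14).

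**Figure D1:**
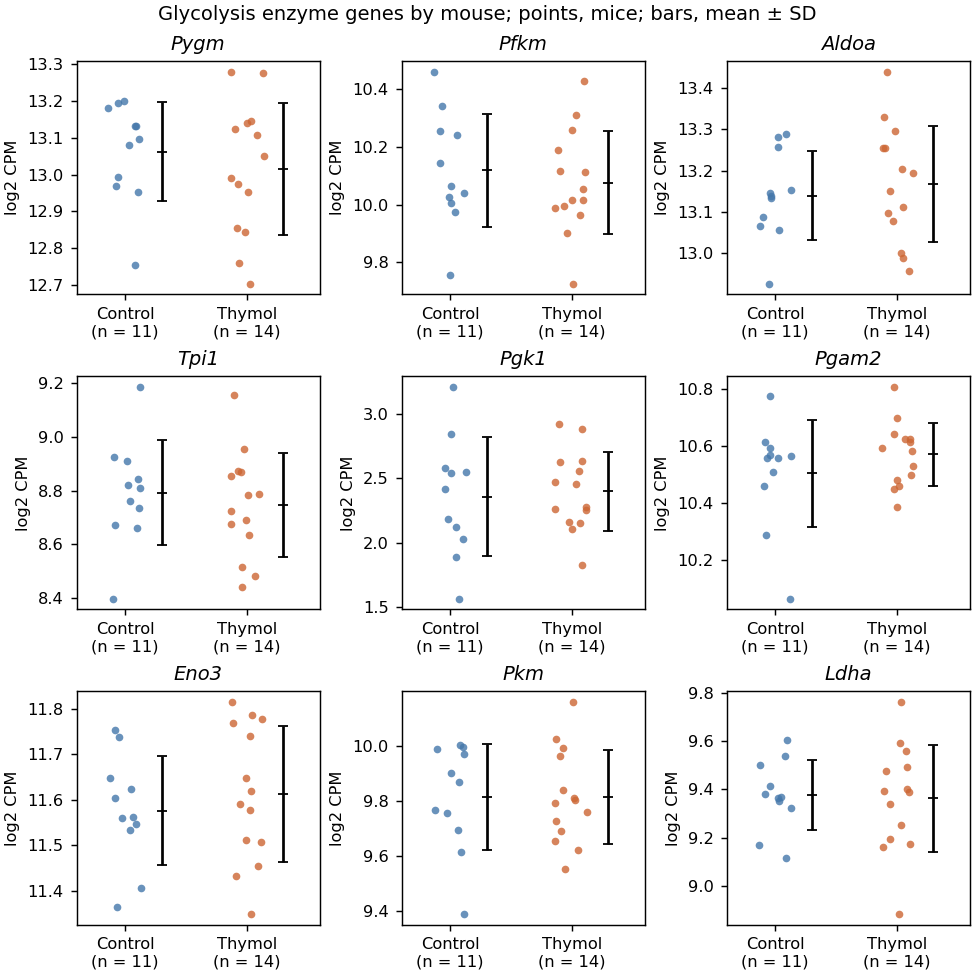
Level of each gene in log2 CPM (vertical axis, a separate scale for each panel) in the 11 Control and 14 Thymol mice. Points are mice and bars give the mean ± SD. The groups overlap in all 9 panels.

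**Figure D2:**
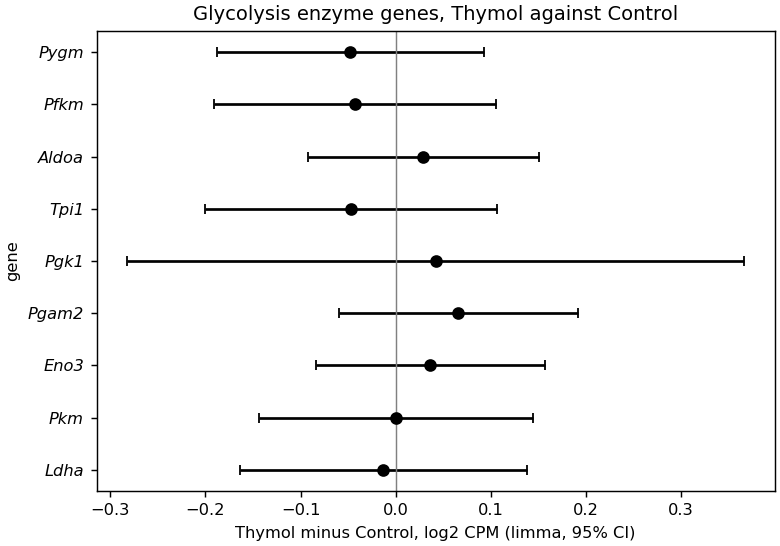
Thymol minus Control difference in log2 CPM (horizontal axis) for the 9 genes, from limma, with 95% confidence intervals as bars. Every interval contains 0, and that of Pgk1 is the widest.

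With all mice, none of 6 ratios of isoforms passed a test between the groups (two-sided permutation test, unadjusted p from 0.166 to 0.951). With 1 mouse left out in turn, the only p under 0.05 was for the ratio of Pfkm to Pfkl without Control 19. That log2 difference was -0.33 (permutation p = 0.0478, not adjusted for the 6 pairs or the 25 mice left out). Over all mice it was -0.24 (permutation p = 0.166), and Pfkl had 23 to 74 reads per mouse. The log2 ratio of Ldha to Ldhb was 3.23 ± 0.54 (SD, n = 11) in Control and 3.19 ± 0.82 (n = 14) in Thymol (permutation p = 0.872).

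Across the mice the genes varied together. With group means removed, the 36 pairs had a median Pearson r of 0.62 over 25 mice, 35 were positive and 23 were above 0.5, while the median over all pairs of genes in the table was -0.0011 and that of the 147 genes at or above the mean of Tpi1 was 0.04. These correlations describe mice of shared libraries and scaling and carry no test. Eno3 and Ldha were the closest pair (r = 0.91), and each was the other's nearest gene of the whole table. Both also rose with library number, the number that ends each library name (r = 0.49 and 0.51). Its part in their pair and in the other pairs was not tested. Pfkm and Pkm followed at 0.83, then Aldoa and Tpi1 at 0.77.

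Pgk1 followed the others least, with a median r of 0.21 to the other 8 genes, and its pair with Pgam2 was the single negative one (-0.09). Its counting SD was 0.24 log2 beside an SD of 0.38 between mice, where Tpi1 had a counting SD of 0.03. The part of counting in the low r of Pgk1 was not tested. Without Pgk1 the median was 0.65. The median was 0.44 within Control and 0.75 within Thymol, a difference that was not tested. With Myh7 and Myh4 removed from the values it was 0.39, and after quantile normalization 0.41. Genes of slow fibres had a median of 0.96 among themselves and genes of fast fibres 0.56.

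**Figure D3:**
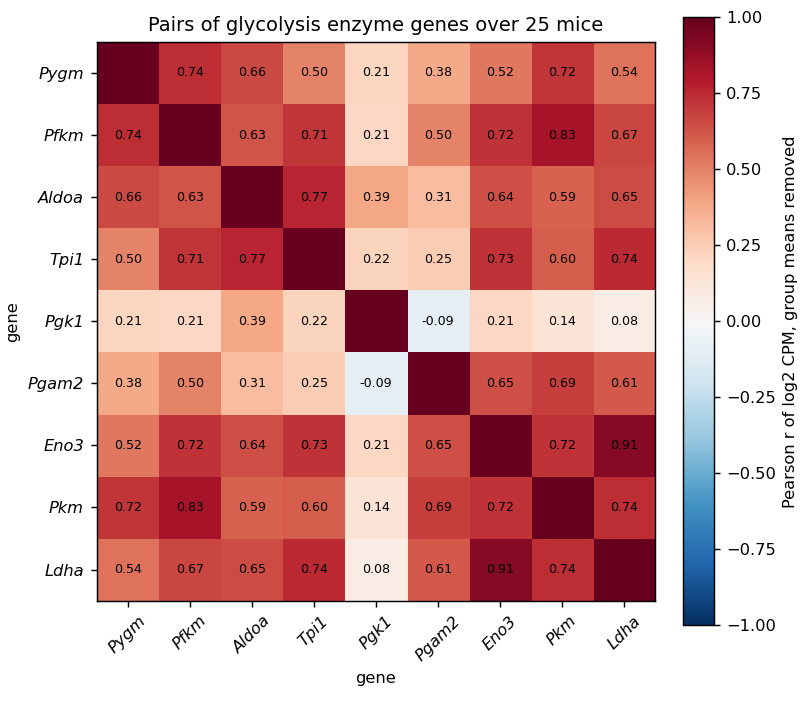
Pearson r of log2 CPM between pairs of the 9 genes over 25 mice with group means removed (colour and printed values). Pgk1 forms the pale row and column, and Eno3 with Ldha is the darkest pair at 0.91.

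The genes outside the list that followed its mean most closely were Camk2a (r = 0.88), Prxl2b (0.85), Rtn2 (0.85), Camk2g (0.84), Pvalb (0.83), Myoz1 (0.83), Mstn (0.82), Aldoart1 (0.79), Mylk4 (0.79) and Micu3 (0.78), over 25 mice with group means removed. Pvalb, a calcium buffer, and Myoz1 are fast fibre genes, Camk2a and Camk2g encode calcium/calmodulin-dependent kinases, and Mstn encodes myostatin, an inhibitor of muscle growth. Aldoart1 shares 11.1% of the words in the last 500 bases of Aldoa transcripts. Among the most opposed were Ampd3 (-0.79), Lpl (-0.78), Dhrs3 (-0.78) and Arpp21 (-0.76), of which Lpl encodes the lipase that releases fatty acids from blood lipids.

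The relation to slow fibres was read from the slope of each gene on Myh7, as the change in log2 CPM for each unit of log2 Myh7 at fixed treatment. Ldha fell as Myh7 rose, by 0.0812 (SE 0.016, adjusted p = 0.0053, limma with Benjamini-Hochberg), and was the 1 gene of 9 called, against 0.827% of all genes called and 0.0906% called in that direction. A further 4 genes, Aldoa, Tpi1, Eno3 and Pkm, had an unadjusted p under 0.05, which makes 5 of 9 against 9.40% of all genes. Their slopes were -0.04, -0.06, -0.04 and -0.05. Pgk1 had a slope of 0.00549. Since the genes varied together, these counts do not stand for separate results.

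Ldha was 9.76 log2 CPM in Thymol 20, the mouse with the least Myh7, and 8.88 in Thymol 6, the mouse with the most (10.08). Over 25 mice r was -0.73 and Spearman's rho -0.75 (two-sided permutation p = 6e-05 and 5e-05), one of 36 relations of 9 genes to 4 myosins. It was -0.66 without Thymol 20 and Thymol 3, -0.54 within Control and -0.80 within Thymol. The slopes of the groups were not told apart by the test for any of the 9 genes (limma interaction, 0 of 9 called against 0% of all genes; 402 genes, 4.55%, had an unadjusted p under 0.05).

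The Ldha call was kept without each mouse in turn. The mean of 6 endothelial markers had r = 0.48 with Myh7 (permutation p = 0.0105, rho 0.36), and its part in the slopes was not tested. Library number had an unadjusted permutation p under 0.05 with 3 of the 9 genes, Pgam2 (r = 0.54), Ldha (0.51) and Eno3 (0.49). With it as a covariate, Ldha remained the gene called. With the first number of the labels as a block, 0 of 9 were called on Myh7, and Ldha had a slope of -0.13 with an adjusted p of 0.407 (limma with Benjamini-Hochberg). The labels do not say what that number means.

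Thymol 20 bore on the other genes. Pygm had r = -0.28 with Myh7 over all mice (rho -0.55) and -0.71 without Thymol 20 and Thymol 3. Without Thymol 20, 3 genes were called, Pygm (slope -0.10), Pfkm (-0.10) and Ldha (-0.10), with adjusted p of 0.0229, 0.0427 and 0.0234 by limma with Benjamini-Hochberg. The share of all genes called rose as well, to 1.37%.

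Ldhb, which encodes the other subunit of the same tetramer, ran the opposite way. It rose with Myh7 by 0.27 per log2 unit (SE 0.0375, adjusted p = 2.86e-05, limma with Benjamini-Hochberg), from 4.63 log2 CPM in Thymol 20 to 7.29 in Control 14. The log2 ratio of Ldha to Ldhb had r = -0.85 with Myh7 (rho -0.77, permutation p = 1e-05 for r, the smallest that 100000 resamples can give) and -0.78 without the 2 farthest mice. Ldha and Ldhb themselves had r = -0.61 (permutation p = 0.00169).

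On Myh2, Ldha was again the 1 gene called (slope -0.21, adjusted p = 0.0358, limma with Benjamini-Hochberg), against 1.89% of all genes called and 0.295% called downward, and all 9 slopes were negative. Myh2 and Myh7 followed each other (r = 0.85), so these are not separate relations. Median centring, a fit without a mean-variance trend and library number as a covariate each ended that call, as did the block on the first label number and leaving out any one of Thymol 3, Thymol 6, Thymol 11, Thymol 30 or Control 23. On Myh1 0 of 9 were called, against 0% of all genes, and 0 of 9 had an unadjusted p under 0.05 against 8.39% of all genes (limma).

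Myh4, the most abundant myosin at 15.04 ± 0.25 log2 CPM (SD, n = 25), ran with the genes in the other direction. Pygm, Pfkm and Tpi1 rose with it, by 0.45 (SE 0.106), 0.46 (SE 0.118) and 0.48 (SE 0.123) per log2 unit, with adjusted p of 0.0159, 0.0275 and 0.0247 by limma with Benjamini-Hochberg. That is 3 of 9, against 3.05% of all genes called and 1.73% called upward, and 7 of 9 had an unadjusted p under 0.05 against 15.1% of all. Aldoa, Eno3, Pkm and Ldha had slopes of 0.30, 0.29, 0.39 and 0.42 that did not pass after adjustment. As on Myh7, the counts are not separate results, since the genes varied together.

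Pygm was 12.70 log2 CPM in Thymol 6 and 12.76 in Control 14, the 2 mice with the least Myh4. It was 13.13 in Control 31 and 13.11 in Thymol 26, the 2 with the most, and highest in Thymol 9, at 13.28. The r of Pygm with Myh4 was 0.69 (rho 0.61, permutation p = 0.0002 and 0.00163). It was 0.52 without Thymol 6 and Control 14, 0.66 within Control and 0.78 within Thymol. Pgam2 had r = 0.08 (rho 0.25, permutation p = 0.694 and 0.228) and a slope of 0.04 (95% CI -0.21 to 0.29). The pair of Pgam2 with Myh4 was -0.19 within Control and 0.47 within Thymol, a difference that was not tested.

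The Myh4 calls depended on scaling and on single mice. Scaled to nuclear genes, 0 of 9 were called, the median slope of all genes moved from -0.0041 to -0.12, and the calls over all genes went from 153 higher and 116 lower to 64 and 212. Without Thymol 6, and with the block on the first label number, 0 of 9 were called, and without Thymol 9 only Pygm was. Pygm itself lost its call without Control 14 (adjusted p = 0.0806, limma with Benjamini-Hochberg), where Pfkm, Tpi1, Eno3 and Ldha were called. After quantile normalization only Tpi1 was called, and Pygm had an adjusted p of 0.537. The share of reads from 7 mitochondrial genome genes, 22.003 to 33.9% per mouse, had r = -0.42 with Myh4 (permutation p = 0.0366), and its part in these slopes beyond the covariate fit, which called Pygm, Pfkm and Pkm, was not tested.

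**Figure D4:**
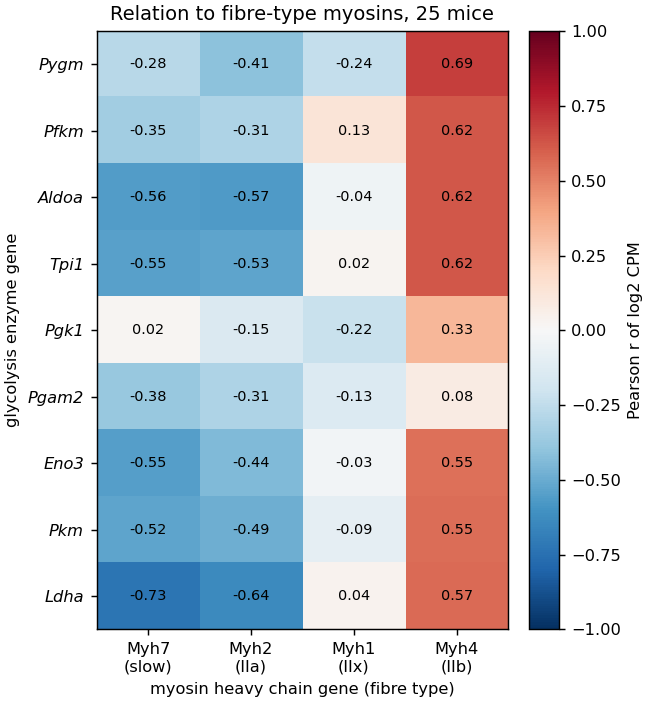
Pearson r of log2 CPM between each of the 9 genes (rows) and 4 myosin heavy chain genes (columns) over 25 mice. Values are mostly negative for Myh7 and Myh2, near 0 for Myh1 and positive for Myh4, where Pgam2 has 0.08.

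**Figure D5:**
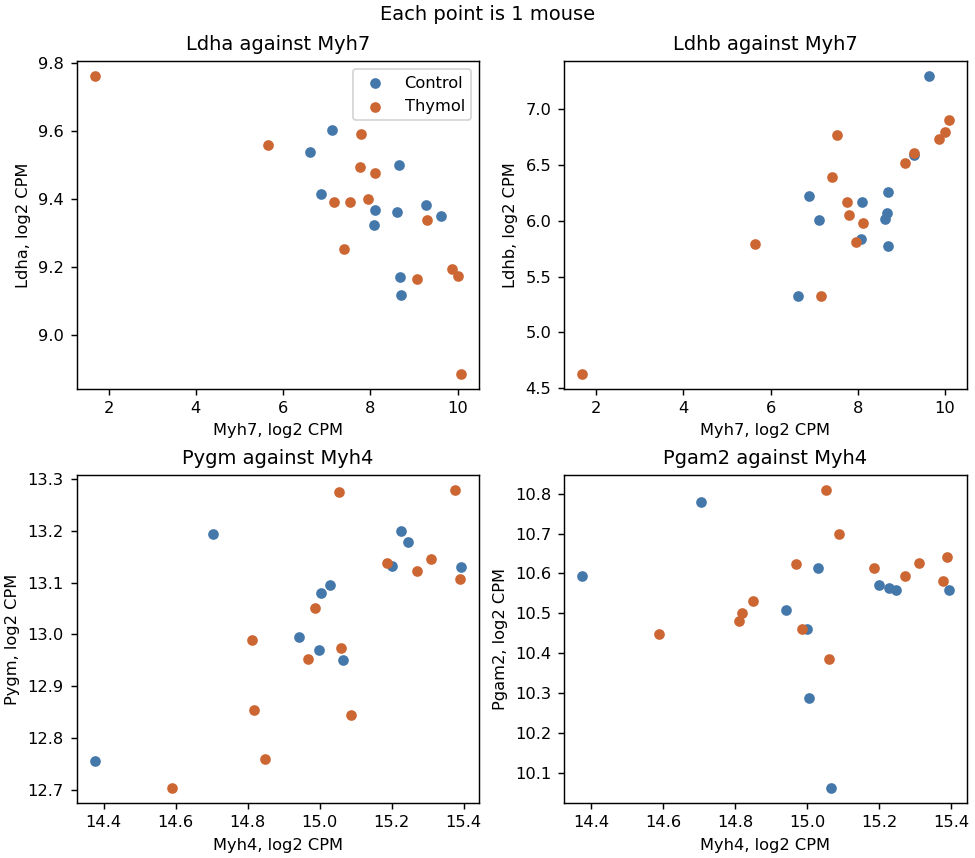
Ldha and Ldhb against Myh7, and Pygm and Pgam2 against Myh4, in log2 CPM, with 1 point per mouse coloured by group. Thymol 20 is the point at the far left of both Myh7 panels (1.68), with the highest Ldha and the lowest Ldhb.

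Other genes around the pathway were read from 5 further lists. With thymol, 0 of 7 genes of glucose entry, 0 of 15 of glycogen metabolism, 0 of 7 flux regulators, 0 of 12 of lactate transport and NADH shuttles and 0 of 17 transcription regulators passed limma with Benjamini-Hochberg, and none had an unadjusted p under 0.05. The smallest unadjusted p values belonged to Tigar, a fructose bisphosphatase (log2 difference 0.16, limma p = 0.0881), Mlxipl, a glucose-responsive transcription factor (0.18, p = 0.107), and Mef2d (-0.08, p = 0.109).

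On Myh7, 0 of the same 58 genes passed, against 0.827% of all genes. The lowest unadjusted p in each direction within lactate transport belonged to the monocarboxylate transporter genes, Slc16a3, the exporter of glycolytic fibres (slope -0.08, limma p = 0.00449), and Slc16a1, which imports lactate (0.09, p = 0.0112). In glycogen metabolism they belonged to the lysosomal glucosidase gene Gaa (-0.07, p = 0.00849) and the branching enzyme gene Gbe1 (0.06, p = 0.0171). Among regulators Ppargc1a, a coactivator of oxidative genes, had 0.06 (p = 0.0419) and Pfkfb4 -0.07 (p = 0.0455).

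On Myh4, 8 of these 58 genes rose and 3 fell (limma with Benjamini-Hochberg), against 1.73% of all genes called upward and 1.31% downward. In glycogen metabolism 4 of 15 rose and 1 fell, beside a list median slope of 0.30 and -0.0041 over all genes. Lactate transport and NADH shuttles had 2 of 12 higher and 2 lower (median slope -0.27), glucose entry 1 of 7 higher (-0.05), transcription regulators 1 of 17 higher (0.04) and flux regulators 0 of 7 (0.38). Scaled to nuclear genes, 5 of the 58 rose and 4 fell. Under that scaling glycogen metabolism again had 4 higher and 1 lower, whereas the shuttles had 0 higher and 2 lower and glucose entry 0 higher and 1 lower.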

How the data were processed

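QuantSeq 3′ libraries of 25 gastrocnemius muscles were mapped to GRCm38 with STAR 2.5.3 and counted with HTSeq 0.6.1 by the authors, who applied TMM scaling. The deposited table holds log2 CPM. The steps between values gave whole reads for 100% of 220725 values (tolerance 0.05 reads), 2 reads having been added before the log, with 0 reads at -1.90. Groups follow the treatment given in each label. The deposited values are logs, so limma 3.58.1 (R 4.3.3, empirical Bayes with trend, two-sided, Benjamini-Hochberg over all genes, threshold 0.05) was run on them in place of the authors' edgeR test. With limma's voom on the recovered reads, 0 genes were called for thymol, 90 on Myh7, 186 on Myh2, 0 on Myh1 and 303 on Myh4. Slopes on a myosin gene included treatment. Permutation tests used 100000 resamples, and 10000 where 1 mouse was left out. In simulated data the fits called 68% of genes with a thymol difference of 0.5 log2 and 95% with 1.0. They called 35% with a Myh7 slope of 0.1 and 80% with 0.2, of either sign. Slopes under 0.1 were not simulated. Promoters were RefSeq windows of GRCm38.p6, and transcripts and coordinates came from GENCODE M21. The members and lists were chosen with earlier results of these data known. Genes were named if they were members, isoform partners or myosins, the 2 with the smallest p per direction in a pathway list, or the 10 most and 5 least like the members' mean. One gene that this rule names is not reported here. Alternatives covered scaling, filter, test, covariates and mice left out. Reads carry no molecular identifiers, so recovered counts describe counting error only.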

Additional observations from a re-analysis of the deposited data

How the results depend on the processing

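Thymol called 0 of 9 genes under all 12 alternatives and without each mouse in turn (0 to 0). Slopes on Myh7 called 1 gene, 2 with leukocyte markers as a covariate (Tpi1 and Ldha), and 1 to 3 without 1 mouse. Slopes on Myh2 called 1, but 0 with median centring, without a mean-variance trend and with library number, and 0 to 2 without 1 mouse (0 without Thymol 3, 6, 11 or 30 or Control 23, 2 without Control 18 or 19). Slopes on Myh4 called 3, but 1 with quantile normalization or without a trend, 5 with median centring or sample weights, 0 scaled to nuclear genes or with the fast fibre list in place of Myh4, and 0 to 5 without 1 mouse (0 without Thymol 6, 1 without Thymol 9, 5 without Control 19). The causes were not tested. Alternatives for Myh2 and Myh1, the removal of Pgk1 or of myosins, the nuclear scaling of the pathway lists and the Tpi1 background were chosen after seeing the data.

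The first number of the labels is shared by some mice of both groups, and the labels do not say what it means. The 9 such pairs had a mean r of -0.0022, and 1 of 9 was over 0.1. For the 145 pairs of both groups with different first numbers the mean was 2.1e-04, and 24 were over 0.1. With so few pairs that share the number, this cannot decide whether it pairs mice. As a replicate block the first number left 0 calls on Myh7 (Ldha slope -0.13, adjusted p 0.407, limma), 0 on Myh2, 0 on Myh4 and 0 for thymol, with fewer degrees of freedom.

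The median pair r of 0.62 became 0.41 with quantile normalization, 0.44 in Control, 0.75 in Thymol, 0.39 with Myh7 and Myh4 removed and 0.40 with 4 myosins removed (0.57 to 0.67 without 1 mouse). Signs turned only for values that no test called. Thymol differences turned for Pygm with quantile normalization (0.0555) and for Pkm with quantile normalization (-0.0114), nuclear scaling (-0.00974), sample weights (-0.0219), library number (-0.00181) and the block (-0.0186), and without single mice ran from -0.0376 to 0.127 for Pgk1, -0.0423 to 0.0200 for Pkm and -0.0439 to 0.0237 for Ldha. Slopes of Pgk1 on Myh7 were -3.54e-05 with library number, -0.0946 with the block, -0.00631 with adipocyte and -0.0244 with leukocyte markers, and -0.0144 to 0.0278 without 1 mouse. Slopes of Pgam2 on Myh4 were -0.0749 with nuclear scaling, -0.0162 with library number, -0.241 with the block and -0.00810 with the fast list, and -0.00124 to 0.114 without 1 mouse. By medians, the Thymol minus Control differences of the log2 ratios of Pygm to Pygl and Pfkm to Pfkp were 0.0603 and 0.0436 (unadjusted permutation p = 0.884 and 0.769). Without 1 mouse these differences of the log2 ratios ran from -0.00912 to 0.223 (Pygm to Pygb), -0.151 to 0.121 (Pygm to Pygl), -0.326 to -0.156 (Pfkm to Pfkl, unadjusted permutation p = 0.0478 without Control 19), -0.0953 to 0.0682 (Pfkm to Pfkp) and -0.197 to 0.0502 (Ldha to Ldhb). Depth limits Pgk1 most, at 18 to 65 reads per mouse.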
